A study of Mus musculus with 9 samples.

Results

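The comparison described here set mouse embryonic fibroblasts (MEFs) given ectopic MyoD against untreated MEFs. It took the 3 libraries titled MyoD and the 3 titled Dmdmdx MEF, 6 of the 9 libraries of the series, by their titles and treatment labels alone. All 9 libraries came from fibroblasts of the Dmdmdx genotype, which carries a premature stop codon in the dystrophin gene, so the controls carry the mutation as well. The untreated cells had no treatment, the MyoD cells had MyoD overexpression and no other agent, and the remaining 3 libraries had MyoD with small molecules abbreviated F/R/C, letters the labels do not expand. The series title concerns myogenic progenitors made from fibroblasts by direct reprogramming and the editing of Dmd in them. What the comparison asks is how far MyoD without the small molecules moved fibroblast transcripts toward muscle. The labels give neither the vector and promoter that supplied MyoD, nor the time after its delivery, nor whether libraries of 1 group were separate cultures. The p-values therefore measure the spread between these libraries, which may be technical.

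MyoD is a basic helix-loop-helix transcription factor that pairs with E proteins and binds short DNA motifs called E-boxes, of the form CANNTG. In embryonic muscle and in many cultured cells it switches on Myog and Mef2 genes, and with them the genes for the sarcomere, the neuromuscular synapse and calcium release. Cells that complete this programme leave the cell cycle, fuse into myotubes and give up much of the expression of their earlier identity.

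The 4 promoters printed here belong to genes the results turn on: a subunit of the acetylcholine receptor, alpha-sarcoglycan and desmin among the genes that were higher with MyoD, and the matrix proteoglycan Ogn among those that were lower. Each is the stretch of 250 bases before the RefSeq start site on GRCm38.p6, written in the direction of transcription, with E-boxes (CANNTG) in capitals. Chrna1 lies on the minus strand at chr2:73580339-73580588 and held 3 E-boxes, 2 of them CAGCTG, at 92 and 44 bases before the start. Sgca lies on the minus strand at chr11:94976328-94976577 and held 1, CATCTG, 86 bases before the start. Des lies on the plus strand at chr1:75360042-75360291 and held CAAATG and CAGCTG, 220 and 36 bases before the start. Ogn lies on the plus strand at chr13:49607765-49608014 and held CAGCTG at 162 bases and CACATG at 63 and 39 bases before the start.
Chrna1: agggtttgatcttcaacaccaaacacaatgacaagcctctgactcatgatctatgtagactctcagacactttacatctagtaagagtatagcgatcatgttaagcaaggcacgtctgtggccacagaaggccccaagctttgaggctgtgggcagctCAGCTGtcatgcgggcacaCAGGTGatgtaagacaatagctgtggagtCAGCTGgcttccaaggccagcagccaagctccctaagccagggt
Sgca: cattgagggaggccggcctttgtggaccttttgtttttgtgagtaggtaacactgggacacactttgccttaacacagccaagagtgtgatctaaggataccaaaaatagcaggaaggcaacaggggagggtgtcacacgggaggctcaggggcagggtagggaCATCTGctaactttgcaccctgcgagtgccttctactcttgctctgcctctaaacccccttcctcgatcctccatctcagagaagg
Des: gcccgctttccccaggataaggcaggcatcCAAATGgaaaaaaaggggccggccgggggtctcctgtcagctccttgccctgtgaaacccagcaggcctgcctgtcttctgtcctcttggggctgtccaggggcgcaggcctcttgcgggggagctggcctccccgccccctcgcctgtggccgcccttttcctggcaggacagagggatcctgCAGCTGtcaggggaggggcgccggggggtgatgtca
Ogn: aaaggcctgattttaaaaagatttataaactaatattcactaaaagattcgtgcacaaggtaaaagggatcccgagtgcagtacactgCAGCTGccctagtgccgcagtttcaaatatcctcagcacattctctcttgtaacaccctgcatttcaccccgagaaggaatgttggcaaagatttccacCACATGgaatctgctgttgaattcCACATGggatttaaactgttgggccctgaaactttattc

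The motif CAGCTG, which reads the same on both strands, stood in 27.1% (46 of 170) of the promoters of genes called higher with MyoD in the paired fit described below, and in 23.8% (5 of 21) of those of genes called lower. It stood in 12.2% (1427 of 11651) of the promoters of all tested genes and in 13% of all 32851 promoters in the RefSeq table. Any CANNTG, a class that includes CAGCTG, was found in 72.9%, 71.4%, 57.4% and 66.2% of these sets in turn. CAGGTG or its reverse complement CACCTG, another kind of CANNTG, was found in 23.5%, 14.3%, 15% and 17.2%. Promoters were matched by symbol for 170 of 235 higher and 21 of 32 lower genes. For these sets and for all tested genes, only the first listed start site of each gene was used. The 32851 promoters of the RefSeq table can include several start sites of a gene, so their shares are not like for like. A match is a run of letters in this window and not a measured binding site.

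The 6 libraries held 21112071 to 23531704 estimated counts, so that 3 counts, the most that a count of 0 allows for counting error alone, came to 0.113 to 0.144 CPM (counts scaled to a common library size, with TMM factors). The fibroblast markers Prrx1 and Pdgfra were present in every one of them, at 285 to 912 and at 273 to 832 CPM. Endothelial markers summed to 15.6 to 34.6 CPM. The 14 heart markers summed to 18.7, 13.0 and 42.6 CPM in MEF and 18.3, 11.3 and 39.4 CPM in MyoD libraries. Of 7 tested, 1 (Sln, sarcolipin, which skeletal muscle also makes) was called higher, in the paired fit and without MEF 3, and the defining markers Nkx2-5, Nppa, Myl7 and Bmp10 had 0 counts. The 12 epithelial markers summed to 1.07, 2.74 and 3.05 CPM in MEF and 2.51, 4.15 and 14.1 CPM in MyoD libraries. Of 4 tested, 3 had a positive unpaired difference and 0 were called, and Krt5 and Krt14 had 0 counts. Macrophage markers summed to 13.5, 6.80 and 22.8 CPM in MEF and 22.0, 10.8 and 34.3 CPM in MyoD libraries, with 5 of 7 tested members higher at each number and 0 called. The part of these other cell types in the results was not tested. MEF 3 stood apart from MEF 1 and MEF 2 in its muscle transcripts: of 74 tested sarcomere genes, 68 were highest in MEF 3 among the 3 MEF libraries. Summed, these genes reached 2121, 1999 and 4703 CPM in MEF 1, 2 and 3 and 3796, 4346 and 11188 CPM in MyoD 1, 2 and 3. The sum includes genes well expressed in every MEF library, such as Tpm1, at 747, 802 and 1473 against 445, 663 and 1424 CPM. The troponin genes among them summed to 6.47, 7.49 and 119 CPM in MEF and 288, 361 and 735 CPM in MyoD libraries. In bulk RNA, a few cells with much muscle RNA and many cells with little cannot be told apart. The libraries numbered 3 were thus the highest of both groups, and libraries of equal number deviated from their group means together. Values are therefore given below by replicate number and, for part of the genes, also without MEF 3.

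With the groups compared as 3 against 3 and no pairing, edgeR's quasi-likelihood test called 0 of 15714 genes in either direction (0%). At an unadjusted p under 0.05 there were 526 higher genes (3.35%) and 206 lower genes (1.31%), and the smallest adjusted p, 0.097, was shared by 9 genes. On the same groups DESeq2 called 160 higher (1.02%) and 11 lower (0.07%), limma-trend 9 and 1, and edgeR with a block over all 9 libraries 13 (0.0827%) and 0. With MEF and MyoD libraries paired by replicate number, edgeR called 235 genes higher (1.5% of those tested) and 32 lower (0.204%). Without MEF 3, the unpaired test called 158 of 16283 higher (0.97%) and 3 lower (0.0184%). Called higher in both were 124 genes, which is 52.8% of the paired calls and 78.5% of those without MEF 3. The median log2 difference was 3.56 over the 235 higher genes and -1.47 over the 32 lower ones, against -0.01 over all tested genes.

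**Figure D1:**
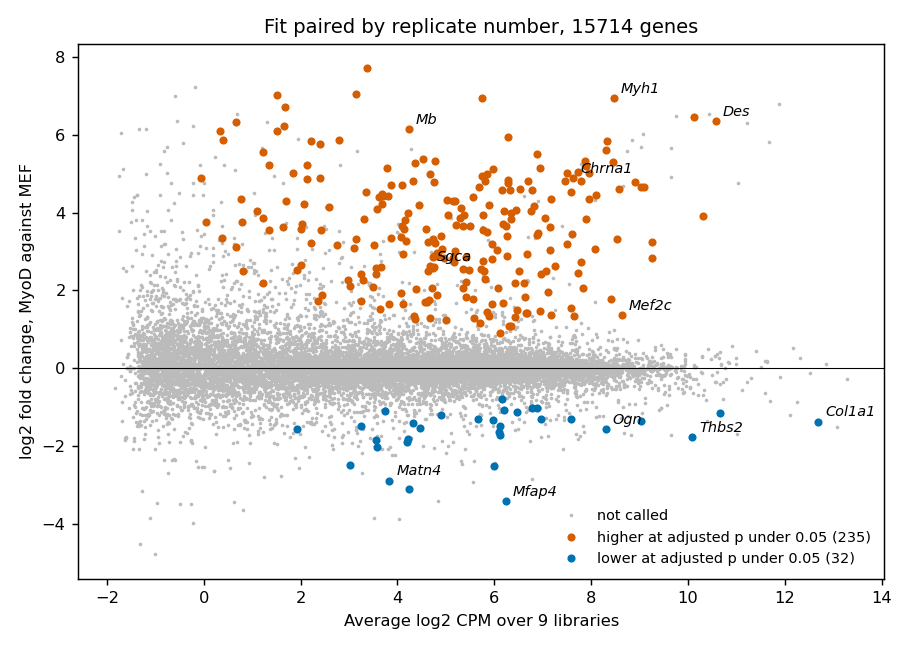
Log2 fold change of MyoD against MEF libraries in the fit paired by replicate number (vertical axis) against the average log2 CPM over 9 libraries (horizontal axis), 1 point per tested gene. The 235 genes called higher reach larger differences than the 32 called lower, whose median was -1.47.

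The paired calls rest on more than the 6 libraries, since the F/R/C libraries helped to set the estimated spread. Those libraries also counted in the filter, which kept 15714 genes, against 14636 on the 6 alone. On the 6 alone the paired fit called 0 genes, with 1037 higher and 929 lower at an unadjusted p under 0.05. Without the libraries numbered 1 the paired fit called 68 higher (0.419%) and 0 lower. Without those numbered 2 it called 48 (0.3%) and 2 (0.0125%), and without those numbered 3 it called 221 (1.36%) and 18 (0.111%). Of the 235 higher genes 37 were called in each of these 3 fits, and of the 32 lower genes 0 were. Among those 37 were Sgca, Mb, Tmod1, Myom1, Trdn, Musk, Pygm, Rbm20 and Slit1. Of the genes just named, Rbm20 and Pygm did not pass the unpaired fit without MEF 3 (adjusted p = 0.0514 and 0.0631). Below, "rose" and "fell" refer to the paired fit, with its Benjamini-Hochberg adjusted p, unless another fit is named. Further genes given below as higher in the paired fit did not pass without MEF 3. They include Itga7 (adjusted p = 0.205), Xirp2 (0.0616), Dtna (0.0704), Kcnj11 (0.082), Cobl (0.0616), Dcx (0.0937), Jag2 (0.118), Egln3 (0.0629) and Snap25.

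The introduced factor came first. Myod1 (chromosome 7, 46376474 to 46379099 on GRCm38) was at 2.60, 0.403 and 6.0 CPM in MEF 1, 2 and 3 and at 7.21, 9.03 and 19 CPM in MyoD 1, 2 and 3. Every MyoD library lay above every MEF library, and the level was 2.77, 22.4 and 3.16 times that of the MEF library of equal number. The log2 difference of 2.28 ± 0.48 (SE) did not pass the paired test (adjusted p = 0.0681), nor did 1.97 ± 0.74 in the unpaired one (adjusted p = 0.886) or 3.00 ± 0.72 without MEF 3 (adjusted p = 0.169). All counts fell on 1 transcript, Myod1-201, so introduced and endogenous copies could not be separated.

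Of 11 myogenic factors, Myod1 included, Mef2c alone rose in the paired fit. This MADS-box factor acts with MyoD on muscle promoters. It was at 27.9, 26.0 and 58.9 CPM in MEF and 64.0, 63.9 and 175 CPM in MyoD libraries, with no overlap between groups (log2 difference 1.36 ± 0.17, adjusted p = 0.0114). Mef2c did not pass the unpaired test (adjusted p = 0.721), the fit without MEF 3 (adjusted p = 0.177) or the paired fits without the libraries numbered 1 or 2 (adjusted p = 0.0744 and 0.0722). Myog, the regulator of terminal differentiation, was at 0.093, 0.121 and 19.1 CPM in MEF and 18.4, 25.6 and 61.3 CPM in MyoD libraries. MEF 3 therefore lay just above MyoD 1 and the groups overlapped. Its paired log2 difference was 4.69 ± 1.10 (adjusted p = 0.108), and without MEF 3 it rose (8.30 ± 0.80, adjusted p = 0.00338). Myf6, a factor of maturing fibres, was at 0, 0 and 1.29 CPM in MEF and 1.48, 2.23 and 3.13 CPM in MyoD libraries, without overlap. Its paired difference missed the threshold (adjusted p = 0.206). Without MEF 3, against 0 counts in MEF 1 and MEF 2, Myf6 was called higher (adjusted p = 0.00865). Myf5 and Pax7, which mark myoblasts and satellite cells, were near absent: the counts of Myf5 were 0, 0 and 7 in MEF against 0, 0 and 2 in MyoD libraries, and those of Pax7 were 0, 0 and 15 against 0, 0 and 3. Both were thus at 0 in MyoD 1 and MyoD 2.

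Of 22 tested genes of muscle progenitors, 1 rose and 0 fell in the paired fit. Itga7, the laminin-binding integrin of muscle cells, was the gene that rose (log2 difference 1.79 ± 0.26, adjusted p = 0.0183). The median over the list was -0.23 in the unpaired fit, -0.12 in the paired fit and 0.13 without MEF 3, where 12 of the 22 were positive. Without MEF 3 it was -0.02 when a gene with no counts in a group was set at the bound that 3 counts allow. Itga7 was at 8.93, 6.48 and 114 CPM in MEF and 30.4, 36.0 and 255 CPM in MyoD libraries. It was higher at each number, yet MEF 3 exceeded MyoD 1 and MyoD 2, and without MyoD 3 its unpaired difference turned to -0.38. Of 19 tested inhibitors and partners of helix-loop-helix factors, a list with the Id, Hey and Twist genes, 0 were called in the paired fit, in which 2 were higher and 1 lower at an unadjusted p under 0.05, against 937 (5.96%) and 565 (3.6%) of all 15714 tested genes.

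**Figure D2:**
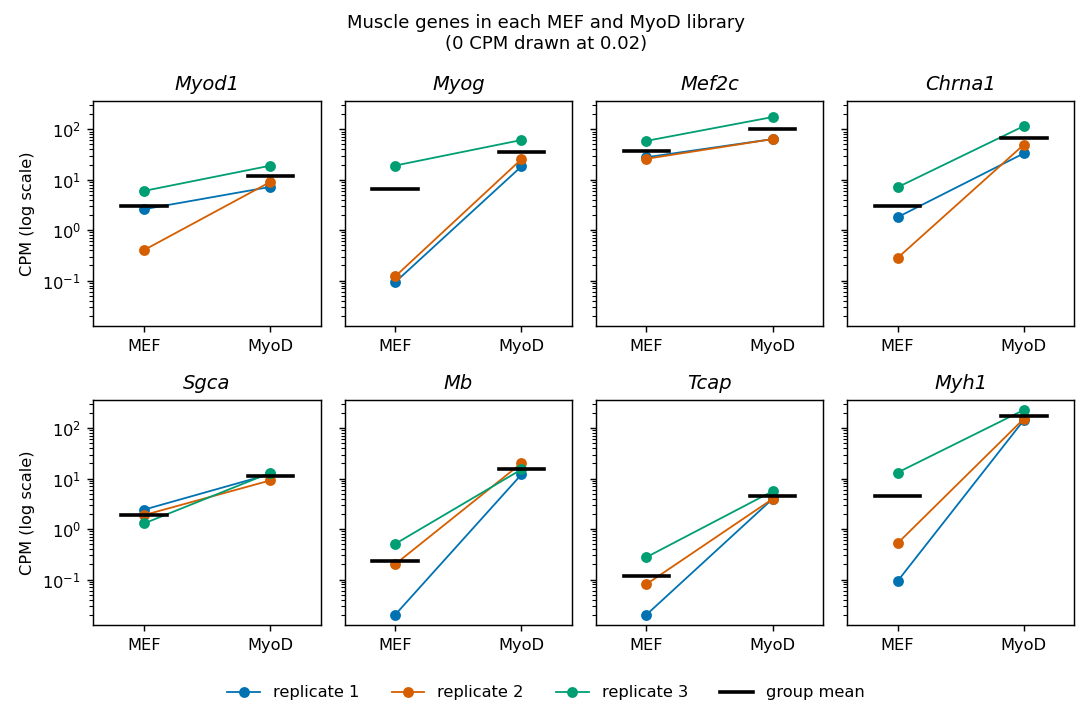
CPM (log axis, 0 drawn at 0.02) of Myod1, Myog, Mef2c, Chrna1, Sgca, Mb, Tcap and Myh1 in MEF and MyoD libraries, with lines joining equal replicate numbers and bars at the group means. Every line rises, and MEF 3 reaches MyoD 1 for Myog (19.1 against 18.4 CPM) but stays well below all MyoD libraries for Mb, Tcap and Myh1.

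Receptor genes of the neuromuscular synapse rose in the paired fit, but those named here did not pass each fit that left out 1 replicate number. Chrna1 (chromosome 2, 73563215 to 73580338), the ligand-binding alpha subunit, was at 1.81, 0.282 and 7.11 CPM in MEF and 33.4, 49.8 and 116 CPM in MyoD libraries. The lowest MyoD library lay above the highest MEF library, and the ratios at equal number were 18.4, 177 and 16.3. Chrna1 rose in the paired fit (log2 difference 4.89 ± 0.61, adjusted p = 0.0103) and without MEF 3 (6.02 ± 0.91, adjusted p = 0.0195). The delta subunit gene Chrnd rose from 1.47 ± 2.44 CPM (SD, n = 3) in MEF to 21.5 ± 14.9 CPM in MyoD libraries (log2 difference 4.82 ± 0.70, adjusted p = 0.0183). The fetal gamma subunit gene Chrng rose from 2.27 ± 3.74 to 32.4 ± 23.9 CPM (5.01 ± 0.82, adjusted p = 0.0262). The beta subunit gene Chrnb1 rose less, by 1.28 ± 0.23 (adjusted p = 0.0374), and its MEF 3 level of 9.0 CPM lay above the 6.58 and 7.89 CPM of MyoD 1 and MyoD 2. In the paired fit without the libraries numbered 1, adjusted p was 0.0521 for Chrna1, 0.0888 for Chrnd, 0.144 for Chrng and 0.151 for Chrnb1. Without MEF 3, Chrnd and Chrng passed (adjusted p = 0.00353 and 0.00762) and Chrnb1 did not (adjusted p = 0.148).

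Genes that build the synapse around the receptor rose as well. Musk, the kinase that clusters receptors, was at 0.093, 0.0403 and 1.43 CPM in MEF and 3.71, 4.61 and 15.1 CPM in MyoD libraries (log2 difference 4.31 ± 0.50, adjusted p = 0.00907). Its activator Dok7 rose by 3.31 ± 0.42 (adjusted p = 0.0113). Ache, the enzyme that clears acetylcholine, was at 0.791, 0.242 and 2.26 CPM in MEF and 6.62, 6.12 and 9.33 CPM in MyoD libraries. The MyoD values lay close together and all above MEF, and Ache rose by 3.01 ± 0.44 (adjusted p = 0.0183). Colq, which anchors that enzyme in the synaptic matrix, rose by 3.35 ± 0.50 (adjusted p = 0.0196). In all, 8 of 11 tested synaptic genes were called higher in the paired fit and 0 lower, with a median log2 difference of 3.35. The others were Rapsn, Lrp4 and Agrn, of which Rapsn passed without MEF 3.

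Of 10 myosin heavy chain genes, 3 rose in the paired fit. Summed, the 10 were at 1.63, 1.41 and 263 CPM in MEF 1, 2 and 3 and at 417, 420 and 1310 CPM in MyoD 1, 2 and 3. The embryonic gene Myh3 was at 0.884, 0.564 and 136 CPM in MEF and 117, 159 and 594 CPM in MyoD libraries, and the perinatal gene Myh8 at 0.279, 0.0805 and 107 against 109, 75.3 and 398 CPM. For both, MEF 3 lay among the MyoD libraries, and neither passed the paired test (adjusted p = 0.069 and 0.123). The adult fast gene Myh1 was at 0.093, 0.523 and 13.2 CPM in MEF and 145, 154 and 230 CPM in MyoD libraries. All 3 MyoD libraries lay far above MEF 3, and Myh1 rose by 6.93 ± 1.06 (adjusted p = 0.0215). Myh2, the fast oxidative form, went from 0, 0 and 5 counts in MEF 1, 2 and 3 to 312, 279 and 448 in MyoD 1, 2 and 3 (log2 difference 7.70 ± 0.79, adjusted p = 0.00741). Myh4, the fastest form, rose by 5.94 ± 1.07 (adjusted p = 0.0381). These 3 were the myosin heavy chain genes called in the paired fit, and without MEF 3 Myh3, Myh7 and Myh8 passed too. Myosin genes are alike in sequence and the counting divided shared reads between them by estimation, so levels of single genes are uncertain.

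Of 7 tested genes of light chains and their kinases, 3 rose in the paired fit and 4 without MEF 3. None was called lower in either. The kinase gene Mylk4 was among those called in both fits (adjusted p = 0.0139 and 0.00624). In sum the list stood at 5.44, 8.13 and 141 CPM in MEF and 356, 446 and 950 CPM in MyoD libraries. Mylpf, the fast regulatory light chain, was at 0.512, 0.242 and 39.1 CPM in MEF and 121, 146 and 318 CPM in MyoD libraries (log2 difference 6.46 ± 1.24, adjusted p = 0.0485). Myl4, the embryonic light chain, rose by 3.92 ± 0.57 (adjusted p = 0.0186). Myl1 was at 0.326, 0.564 and 48.8 against 137, 183 and 354 CPM and missed the threshold (6.52 ± 1.26, adjusted p = 0.0504), but rose without MEF 3 (8.97 ± 0.74, adjusted p = 0.0024). Of 8 troponin genes, whose products make the thin filament respond to calcium, 5 rose in the paired fit and 7 without MEF 3, and none of the 8 fell in either. Together they were at 6.47, 7.49 and 119 CPM in MEF and 288, 361 and 735 CPM in MyoD libraries. Tnnc1, the slow calcium-binding subunit, was at 0.977, 1.77 and 14.5 CPM in MEF and 46.4, 75.0 and 137 CPM in MyoD libraries (4.66 ± 0.58, adjusted p = 0.0103). Fast Tnnt3, the tropomyosin-binding subunit, rose from 6.61 ± 9.25 to 86.7 ± 29.7 CPM (4.79 ± 0.77, adjusted p = 0.0256).

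**Figure D3:**
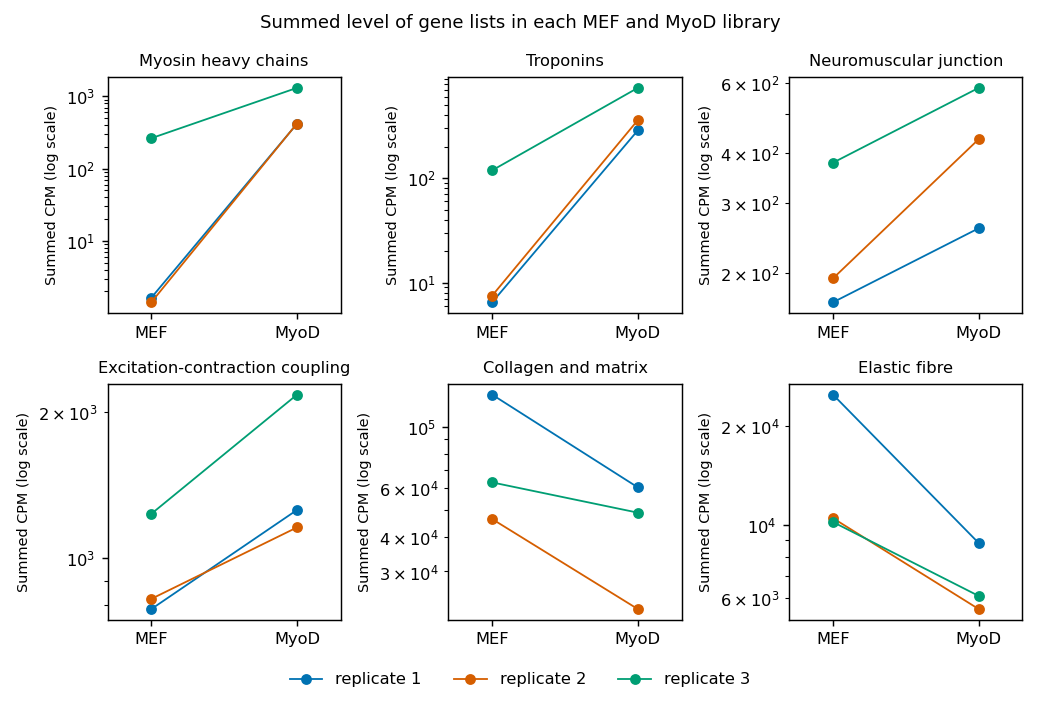
Summed CPM (log axes that differ between panels) of 6 gene lists in MEF and MyoD libraries, with lines joining equal replicate numbers. Contractile and synaptic lists rise at every number, with MEF 3 starting higher than MEF 1 and MEF 2, and the matrix lists fall at every number.

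Proteins of the thin filament, Z-disc and M-band followed the same direction. In the thin filament 8 of 14 genes rose, in the Z-disc 11 of 18, and in the thick filament and M-band 11 of 17, with paired medians of 4.46, 3.55 and 3.84 and no gene called lower. Tcap (chromosome 11, 98383811 to 98384953), the telethonin that caps titin at the Z-disc, was at 0, 0.0805 and 0.277 CPM in MEF and 3.98, 3.97 and 5.63 CPM in MyoD libraries. MEF levels rested on 0, 2 and 6 counts and MyoD levels lay within a narrow range. Tcap rose by 5.27 ± 0.71 (adjusted p = 0.014). Tmod1, which caps the slow end of actin filaments, was at 3.12, 1.89 and 2.81 CPM in MEF and 13.3, 9.71 and 23.0 CPM in MyoD libraries (2.50 ± 0.24, adjusted p = 0.00582). Unlike most muscle genes it was not highest in MEF 3.

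Myom1, the myomesin that links thick filaments at the M-band, had a very even paired difference (3.18 ± 0.24, adjusted p = 0.00412), from 2.93, 2.29 and 12.8 CPM in MEF to 28.3, 27.8 and 84.9 CPM in MyoD libraries. Actn3, the fast alpha-actinin of the Z-disc, rose by 4.66 ± 0.58 (adjusted p = 0.0103) and Ldb3, a Z-disc scaffold, by 3.06 ± 0.33 (adjusted p = 0.00758). Neb, the giant protein that sets thin filament length, was at 0.372, 0.523 and 15.2 CPM in MEF and 24, 50.9 and 147 CPM in MyoD libraries (5.0 ± 0.63, adjusted p = 0.0105). Xirp2, an actin-binding protein of muscle attachment sites, went from 0, 0 and 30 counts in MEF 1, 2 and 3 to 173, 471 and 2169 in MyoD 1, 2 and 3 (6.94 ± 0.71, adjusted p = 0.00741). MyoD 3 held most of these Xirp2 counts. Sarcomeric actins did not pass the paired test, but Acta1 and Actc1 both passed without MEF 3 (adjusted p = 0.00366 and 0.0122). Acta1, the skeletal form, was at 0.419, 1.65 and 143 CPM in MEF and 324, 377 and 856 CPM in MyoD libraries (paired log2 difference 6.78 ± 1.43, adjusted p = 0.0685). Actc1, the cardiac form that embryonic muscle also makes, was at 0.186, 0.483 and 85.2 against 46.1, 33.3 and 194 CPM (adjusted p = 0.152), with MEF 3 above MyoD 1 and MyoD 2.

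Desmin, the muscle intermediate filament, rose among the largest. Des was at 0.930, 0.644 and 50.7 CPM in MEF and 149, 238 and 533 CPM in MyoD libraries (log2 difference 6.35 ± 1.04, adjusted p = 0.0261), with no overlap. Without MEF 3 the difference was 8.62 ± 0.81 (adjusted p = 0.00314). Des was the 1 gene called among 14 smooth muscle and myofibroblast genes. Of these 14, 11 had a negative unpaired difference and 9 were lower at each number, against 19.4% of all tested genes. Their median was -0.50 unpaired, -0.73 paired and 0.25 without MEF 3.

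Excitation-contraction coupling, the route from membrane voltage to calcium release, was represented by 23 genes. All 23 had a positive unpaired difference, 13 rose in the paired fit, and 21 were higher at each replicate number, as were 17.4% of all tested genes. Cacna1s, the voltage sensor, was at 0.140, 0.0403 and 4.75 CPM in MEF and 19.2, 21.1 and 43.7 CPM in MyoD libraries (log2 difference 5.14 ± 0.78, adjusted p = 0.0209). Ryr1, the calcium release channel, rose by 5.32 ± 0.79 (adjusted p = 0.0195) and Casq1, the calcium store protein, by 5.85 ± 0.97 (adjusted p = 0.0269). Trdn, the triadin that joins both, went from 0, 0 and 15 counts in MEF 1, 2 and 3 to 126, 142 and 246 in MyoD 1, 2 and 3 (5.39 ± 0.66, adjusted p = 0.0103).

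Adaptors and minor channels of the same complex rose by smaller and steadier amounts. Stac3, which couples the voltage sensor to the release channel, was at 0.512, 0.564 and 1.85 CPM in MEF and 3.80, 5.36 and 8.61 CPM in MyoD libraries (2.72 ± 0.32, adjusted p = 0.00909). Jsrp1, a triad protein, rose by 3.66 ± 0.39 (adjusted p = 0.00741) and Srl, the calcium-binding sarcalumenin, by 2.84 ± 0.30 (adjusted p = 0.00741). Ryr3, the second release channel, was at 0.465, 1.53 and 0.461 CPM in MEF and 2.69, 5.51 and 2.79 CPM in MyoD libraries. The number 2 library was the highest of each group, and Ryr3 rose by 2.26 ± 0.26 (adjusted p = 0.00909). Atp2a1, the fast calcium pump, was at 0, 0.242 and 34.6 against 93.7, 86.6 and 199 CPM, which did not pass the paired test (adjusted p = 0.0919) and passed without MEF 3 (adjusted p = 0.00314).

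The dystrophin-associated complex, of interest because the cells are dystrophin-mutant, did not rise as a whole. Of 21 tested genes 4 rose in the paired fit and 0 fell, and the median was 0.00 unpaired and 0.03 paired. Sgca (chromosome 11, 94962791 to 94976327), which encodes the muscle-restricted alpha-sarcoglycan, was at 2.42, 1.89 and 1.29 CPM in MEF and 12.3, 9.21 and 13.0 CPM in MyoD libraries. Here MEF 3 was the lowest of all 6 libraries, and the ratios at equal number were 5.09, 4.87 and 10.1. Sgca rose by 2.63 ± 0.28 (adjusted p = 0.00741), was one of 9 genes sharing the smallest adjusted p of the unpaired fit (2.62 ± 0.29, adjusted p = 0.097), and rose without MEF 3 (2.44 ± 0.30, adjusted p = 0.00779). Dtna, alpha-dystrobrevin, rose by 1.45 ± 0.22 (adjusted p = 0.0195), and Capn3, the muscle calpain, by 4.19 ± 0.35 (adjusted p = 0.00547).

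Dmd itself (chromosome X, 82948870 to 85206141) was at 18.3, 2.46 and 5.49 CPM in MEF and 23.9, 4.57 and 17.6 CPM in MyoD libraries. Each MyoD library exceeded the MEF library of its number while the groups overlapped, and the paired difference of 0.98 ± 0.26 did not pass (adjusted p = 0.171). Its paralogue Utrn, utrophin, was at 125, 191 and 226 against 117, 154 and 262 CPM.

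Genes of muscle energy supply rose in part. Of 21 tested, 20 had a positive unpaired difference, 17 were higher at each number and 8 rose in the paired fit (median 2.05). Mb (chromosome 15, 77015487 to 77050670), the oxygen store myoglobin, went from 0, 5 and 11 counts in MEF 1, 2 and 3 to 271, 536 and 315 in MyoD 1, 2 and 3, that is 0.236 ± 0.256 and 15.8 ± 4.10 CPM. The groups were far apart and the MyoD libraries close together, and Mb rose by 6.14 ± 0.58 (adjusted p = 0.00582). Pygm, the muscle glycogen phosphorylase, rose by 2.73 ± 0.29 (adjusted p = 0.00741), while Pygb, its brain-type counterpart, was at 136, 155 and 124 against 82.3, 87.3 and 75.3 CPM (-0.76 ± 0.16, adjusted p = 0.0676). The glycolytic genes Eno3 and Pgam2, both muscle isoenzymes, rose by 2.05 ± 0.24 (adjusted p = 0.00909) and 3.86 ± 0.62 (adjusted p = 0.0254). Ckm, the muscle creatine kinase, was at 0.093, 0.121 and 1.52 CPM in MEF and 6.36, 1.89 and 8.56 CPM in MyoD libraries (3.56 ± 0.53, adjusted p = 0.0196), with MyoD 2 only just above MEF 3.

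**Figure D4:**
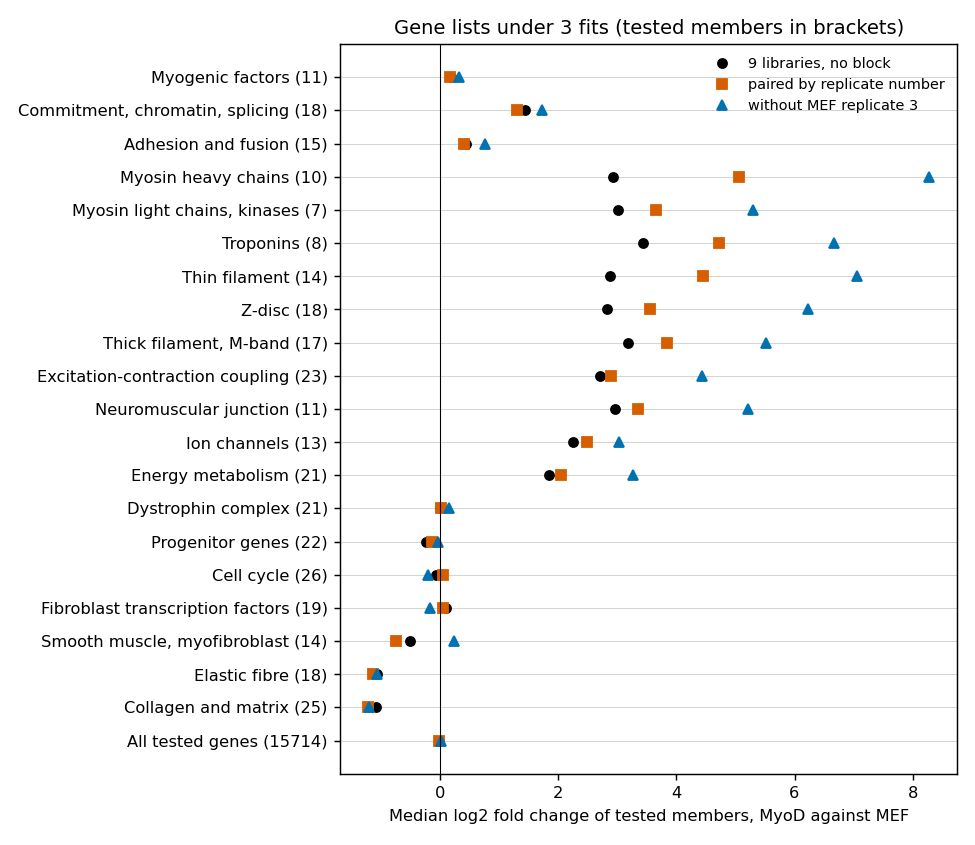
Median log2 fold change of MyoD against MEF over the tested members of 20 gene lists and over all tested genes, in the unpaired fit, the paired fit and the unpaired fit without MEF 3 (in which genes with no counts in MEF 1 and MEF 2 stand at the bound that 3 counts allow). Contractile lists lie between 2 and 4 in the unpaired fit and shift right without MEF 3, and the collagen and elastic fibre lists stay near -1 in all fits.

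Membrane channels and pumps gave 3 calls among 13 genes, with a paired median of 2.50. They included Kcnj11 and Abcc9, the pore and the regulatory subunit of ATP-sensitive potassium channels. Kcnj11 had 0, 0 and 2 counts in MEF and 9, 22 and 52 in MyoD libraries, and the filter did not keep it on the 6 libraries alone. Of 15 Kelch proteins, ubiquitin ligase adaptors and muscle RNAs 5 rose, among them Klhl41, a Kelch protein that stabilises nebulin (3.85 ± 0.52, adjusted p = 0.0143).

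Of 18 commitment, chromatin and splicing genes 5 rose, among them Smyd1, a muscle histone methyltransferase (5.49 ± 0.81, adjusted p = 0.0186). Rbm20, a regulator of titin splicing, was at 0.279, 0.161 and 1.20 CPM in MEF and 2.06, 2.30 and 8.61 CPM in MyoD libraries (3.07 ± 0.27, adjusted p = 0.00547). Rbfox1, another splicing regulator, was at 2.09, 2.46 and 1.29 against 4.65, 5.97 and 9.57 CPM, lowest of all in MEF 3, and rose by 1.74 ± 0.33 (adjusted p = 0.0454). Of 15 adhesion and fusion genes 4 rose. Mymk, the membrane protein myomaker, was at 0.233, 0.121 and 7.38 CPM in MEF and 22.2, 31.8 and 67.2 CPM in MyoD libraries (5.21 ± 0.81, adjusted p = 0.0235). Its partner Mymx did not pass the paired test (adjusted p = 0.061) but passed without MEF 3 (adjusted p = 0.0146). Cdh15, the M-cadherin of myoblasts, rose by 3.46 ± 0.48 (adjusted p = 0.0148).

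Compared per transcript length, by the deposited TPM values, the fast light chain Mylpf (640 ± 304 TPM, SD, n = 3) and Myl1 (548 ± 253) lay above Des (213 ± 124) in MyoD libraries. The skeletal actin gene Acta1 was higher still (837 ± 415), and Myl4 (389 ± 217) and Tnnc1 (279 ± 131) lay between Myl1 and Des. Among other muscle genes chosen for this order, Myh1 was at 59.4 ± 11 TPM, Myog at 48.8 ± 28.3 and Mb at 40.4 ± 14.7, whose ranges overlap. Chrna1 (26.2 ± 15.3), Sgca (21.6 ± 4.53), Myod1 (12.9 ± 5.98) and Tcap (11.1 ± 1.56) were lower. Between Des and Myh1 the libraries did not overlap, and all other neighbours among these 13 genes overlapped in their libraries. Within each of MyoD 1, 2 and 3, the order from Acta1 through Mylpf, Myl1, Myl4 and Tnnc1 to Des was nevertheless the same. In MyoD 1 these genes were at 535, 410, 338, 241, 155 and 109 TPM in turn.

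Of the 235 genes that rose, 90 belonged to the 15 muscle lists, which hold 219 tested genes, and 137 belonged to no list at all. Several of the latter are known from striated muscle. Mustn1, a small nuclear protein of muscle and skeleton, rose by 3.43 ± 0.38 (adjusted p = 0.00764). Ano5, a membrane protein mutated in limb-girdle muscular dystrophy, was at 0.884, 0.282 and 1.06 against 4.74, 6.84 and 10.9 CPM and rose by 3.36 ± 0.40 (adjusted p = 0.00909). Myo18b, an unconventional myosin needed for sarcomere assembly, went from 0, 0 and 6 counts in MEF 1, 2 and 3 to 131, 162 and 443 in MyoD 1, 2 and 3 (7.05 ± 0.72, adjusted p = 0.00741).

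Others of the 137 have various roles. Slit1, a secreted axon guidance protein, was at 0, 0.121 and 0.369 CPM in MEF and 2.24, 4.64 and 9.77 CPM in MyoD libraries (5.15 ± 0.38, adjusted p = 0.00412). Camk2b, a calcium-dependent kinase, rose by 2.56 ± 0.30 (adjusted p = 0.00909), and Cobl, an actin nucleator, by 2.29 ± 0.25 (adjusted p = 0.00759). Dhrs7c, a dehydrogenase of the sarcoplasmic reticulum, had 1 count in all MEF libraries together. In MyoD 1, 2 and 3 it had 36, 18 and 27 counts, and it was called higher.

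Calls fell on 3 of 11 genes listed as neural and glial: Nes, the intermediate filament nestin, which myoblasts also make (3.24 ± 0.50, adjusted p = 0.0215), Dcx, a microtubule protein (2.74 ± 0.24, adjusted p = 0.00547), and Snap25. The summed level of that list was 52.2, 103 and 115 CPM in MEF and 159, 235 and 299 CPM in MyoD libraries. Snap25, a protein of vesicle fusion, was at 11, 35.2 and 1.57 CPM in MEF and 66.6, 89.0 and 3.32 CPM in MyoD libraries. Both number 3 libraries were low, the groups overlapped, and it rose by 1.71 ± 0.31 (adjusted p = 0.0404). Jag2, a Notch ligand, rose by 2.21 ± 0.18 (adjusted p = 0.00547), the 1 call among 13 genes of the Notch pathway. Egln3, an oxygen-sensing hydroxylase, rose by 1.82 ± 0.23 (adjusted p = 0.0103), the 1 call among 22 genes of glycolysis and hypoxia.

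Since MEF 3 held muscle RNA, the 27 higher genes for which it was not the highest MEF library are given separately; the other 208 were highest there. Of these 27, 4 were also called without MEF 3. The 27 include Sgca and Tmod1, which passed without MEF 3 (adjusted p = 0.00779 and 0.0268), and Ryr3 and Rbfox1, which did not (adjusted p = 0.357 and 0.0871). Mss51, a mitochondrial protein of skeletal muscle, was at 0.558, 0.121 and 0.369 CPM in MEF and 5.77, 7.78 and 9.28 CPM in MyoD libraries (log2 difference 4.47 ± 0.53, adjusted p = 0.00909; 0.0178 without MEF 3). MEF 3 lay between the other MEF libraries, and the groups were well separated. Car3, the muscle carbonic anhydrase, was at 44.1, 8.29 and 10.4 against 195, 186 and 105 CPM (3.31 ± 0.57, adjusted p = 0.0332). Rap1gap2, which turns off the GTPase Rap1, was at 3.21, 0.604 and 0.0923 against 19.1, 14.5 and 18.1 CPM (4.19 ± 0.66, adjusted p = 0.0244). Cd36, the fatty acid transporter, was at 11.5, 8.25 and 6.09 against 19.4, 18 and 24.3 CPM (1.28 ± 0.24, adjusted p = 0.0423). For these 3, MEF 3 was the lowest or nearly the lowest MEF library, and none passed without MEF 3 (adjusted p = 0.363, 0.0599 and 0.105 in turn).

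Over the 235 higher genes, 233 were higher at each replicate number and 192 had no overlap between groups, against 4.4% of all tested genes without overlap in that direction; both are features that favour a call. The mean of MEF 1 and MEF 2 was under 1 CPM in 172 of them, and the mean of all 3 MEF libraries in 112. Among all tested genes these shares were 17% and 15.7%.

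Of the 32 genes that fell, 7 belonged to the lists of collagen and matrix, elastic fibre and cartilage and bone genes, and 23 to no list. All 32 were lower at each number, and 9 had no overlap, against 3.11% of all tested genes in that direction. Ogn (chromosome 13, 49608046 to 49624501), the leucine-rich proteoglycan osteoglycin, was at 665, 654 and 558 CPM in MEF and 233, 238 and 170 CPM in MyoD libraries. Each group was tight and the ratios at equal number were 0.351, 0.364 and 0.306. Ogn fell by 1.56 ± 0.17 on the log2 scale (adjusted p = 0.00741), and by 1.60 ± 0.23 without MEF 3 (adjusted p = 0.0155). Matn4, the cartilage matrix protein matrilin 4, was at 21.5, 34.4 and 53.9 against 4.43, 5.74 and 3.80 CPM and fell by 2.88 ± 0.38 (adjusted p = 0.0136). With Adamtsl2, an extracellular glycoprotein, these were the 3 genes lower without MEF 3. Adamtsl2 was at 18.3, 2.33 and 0.185 CPM in MEF and 0.582, 0.378 and 0.337 CPM in MyoD libraries, so MEF 3 lay below every MyoD library. Its paired difference did not pass (adjusted p = 0.316).

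Collagen and matrix genes shifted together to a modest degree. Of 25 tested, 24 had a negative unpaired difference, 21 were lower at each number, 4 fell in the paired fit and 0 rose, with a median of -1.08 unpaired and -1.20 paired. Their summed level went from 130600 to 60380 CPM at number 1, from 46400 to 21940 CPM at number 2 and from 62940 to 48930 CPM at number 3. Col1a1, the main fibrillar collagen chain, was at 28480, 6557 and 4888 CPM in MEF and 9581, 2720 and 2030 CPM in MyoD libraries. MyoD 1 exceeded MEF 2 and MEF 3, so the groups overlapped, but Col1a1 was lower at each number and fell by 1.37 ± 0.24 (adjusted p = 0.0336). Col5a2, a chain of the collagen that seeds fibrils, fell by 1.14 ± 0.21 (adjusted p = 0.0411). Thbs2, the matricellular thrombospondin 2, was at 3658, 1107 and 1911 against 1073, 383 and 472 CPM, without overlap, and fell by 1.77 ± 0.31 (adjusted p = 0.0332). Fmod, fibromodulin, was at 164, 77.3 and 104 against 14.0, 14.0 and 48.0 CPM and missed the threshold (adjusted p = 0.105).

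**Figure D5:**
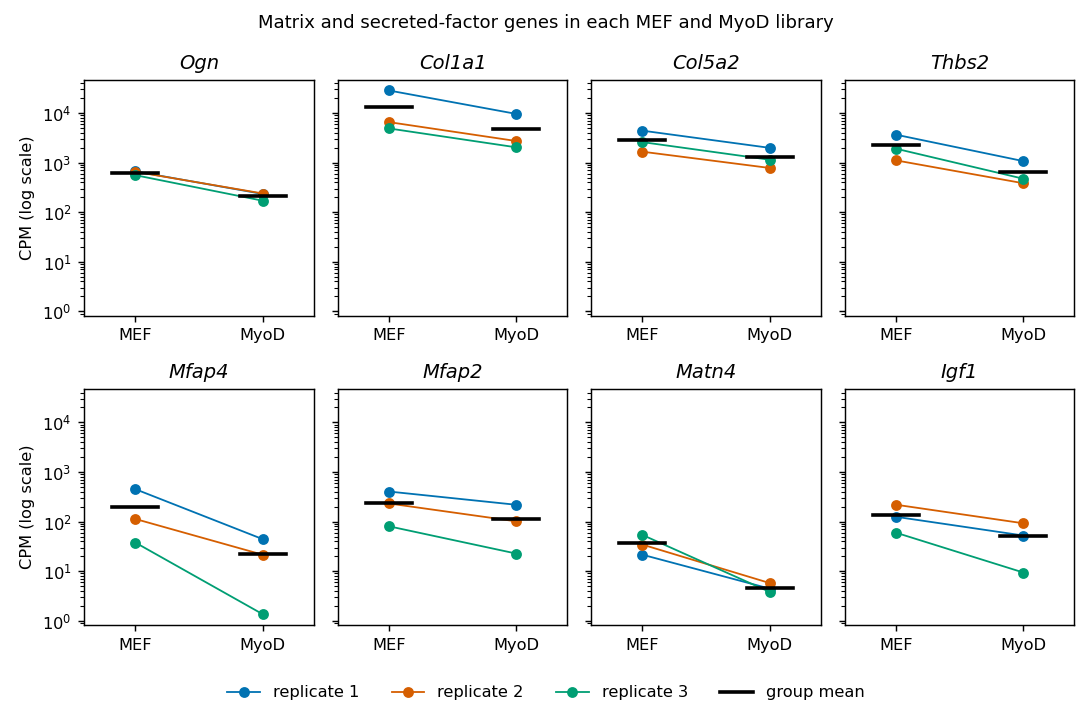
CPM (log axis) of Ogn, Col1a1, Col5a2, Thbs2, Mfap4, Mfap2, Matn4 and Igf1 in MEF and MyoD libraries, with lines joining equal replicate numbers and bars at the group means. Every line falls, while starting levels differ between MEF libraries, as for Col1a1 (28480, 6557 and 4888 CPM).

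Elastic fibre genes showed the same direction. Of 18 tested, 17 had a negative unpaired difference, 13 were lower at each number and 2 fell in the paired fit, with a paired median of -1.12. Mfap4, a microfibril-associated protein, was at 451, 113 and 37.8 CPM in MEF and 44.1, 21.4 and 1.35 CPM in MyoD libraries (fell by 3.41 ± 0.42, adjusted p = 0.0103). Mfap2, another microfibril component, fell by 1.3 ± 0.23 (adjusted p = 0.0382). Loxl2, a collagen crosslinking enzyme, was at 351, 154 and 350 against 78.7, 93.8 and 120 CPM, without overlap but above the threshold (adjusted p = 0.0562). None of these matrix calls besides Ogn and Matn4 passed without MEF 3, and no lower call passed in all 3 fits that left out 1 replicate number.

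The other listed genes that fell were Igf1 and Ccn4. Igf1, the growth factor, was at 125, 219 and 59.8 CPM in MEF and 52.3, 92.3 and 9.38 CPM in MyoD libraries (fell by 1.70 ± 0.31, adjusted p = 0.0388). It was the 1 call among 14 genes of the IGF axis. Ccn4, a Wnt-inducible matricellular protein, fell by 1.48 ± 0.28 (adjusted p = 0.0449). Of the fallen genes in no list, Gas6, the ligand of TAM receptor kinases, was at 1632, 719 and 729 against 842, 299 and 208 CPM (it fell by 1.34 ± 0.22, adjusted p = 0.0261). Nell2, a secreted glycoprotein, fell by 3.11 ± 0.59 (adjusted p = 0.0454). Itga11, the collagen-binding integrin of fibroblasts, was at 156, 44.1 and 240 against 13.3, 7.52 and 86.0 CPM and fell by 2.52 ± 0.41 (adjusted p = 0.0256). Runx1, a transcription factor active in mesenchymal cells, fell by 1.03 ± 0.17 (adjusted p = 0.0261).

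Of 19 tested transcription factors of fibroblast identity, 0 were called in any direction in the paired fit, the unpaired fit or the fit without MEF 3, with 0 at an unadjusted p under 0.05 in the unpaired one, and their median was 0.10 unpaired, 0.05 paired and -0.16 without MEF 3. The 17 fibroblast surface genes gave 0 calls and a median of -0.28 unpaired, -0.39 paired and 0.36 without MEF 3. Cell cycle genes gave 0 calls among 26, with medians of -0.06 unpaired, 0.06 paired and -0.20 without MEF 3, where 19 were negative, and summed to 783, 558 and 412 CPM in MEF and 574, 572 and 508 CPM in MyoD libraries. Among 19 genes of cell cycle exit 0 were called, with medians of -0.06 unpaired, 0.01 paired and 0.11 without MEF 3. Summed, they were higher at each number, at 2844, 3637 and 4530 CPM in MEF and 3684, 3921 and 6441 CPM in MyoD libraries. Cdkn1c, a CDK inhibitor, went the other way from that sum, at 14.6, 55.7 and 60.7 against 9.35, 23.8 and 15.7 CPM (paired log2 difference -1.28 ± 0.28, adjusted p = 0.0812). A p above the threshold does not show that such genes were unaffected.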

How the data were processed

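Polyadenylated RNA of 9 libraries was sequenced from TruSeq Stranded mRNA preparations (source: labels). Per the submitters' processing notes the tools were bcl2fastq 2.19, Trimmomatic 0.36, kallisto 0.44 and edgeR 3.28, with genome build GRCm38.p6. The tables deposited by the authors give, per the file headers, 1 estimated count (expected count) for each of 121843 transcripts in each library. TPM values deposited beside them were used only to compare levels between genes. For program options, annotation release and strand setting the sources used here give nothing.

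Of these transcripts 121104 were assigned to 35675 genes through GENCODE M21, and 739, with 0.200% to 0.494% of a library's counts, were left out. Gene sums were rounded and fitted with edgeR 4.0.16 (R 4.3.3): genes kept at a minimum count of 10 and a total of 15, TMM scaling, 1 mean per group over 9 libraries, two-sided quasi-likelihood F test, Benjamini-Hochberg adjustment, calls at an adjusted p under 0.05. The SE was taken from the log2 difference and F, as its size over the root of F. An exact permutation test of 3 against 3 cannot give a p under 0.1 and was not used. Equal replicate numbers of MEF and MyoD libraries correlated in their deviations from the group means at 0.655, 0.632 and 0.729, and unequal ones at most at 0.0553. For each gene the deviations within a group cancel out, so high values at equal numbers push those at unequal numbers down. The contrast between them is therefore no independent evidence of pairing. All 3 values at equal numbers exceeded 0.1, the limit taken for pairing. The planned fit with a block for the number, in MEF and MyoD libraries only, is therefore given beside the unpaired one. The labels do not state a pairing.

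Alternatives were DESeq2 1.42.0, its size factors, total-count scaling, other filters, other blocks, the 6 libraries alone, libraries left out, counts scaled from TPM and limma-trend (limma 3.58.1). The analysis code was tested on simulated data. Comparisons, 41 gene lists (670 genes) and the members described were chosen with earlier results of these data known. Named genes are Myod1, Sgca, Mb, Tcap, Chrna1, Myog, Myf5, Myf6, Pax7, Mef2c and Dmd. Added are the 10 genes of smallest p in each direction that have no overlap and average 1 or more in log2 CPM (all genes, then genes in no list), up to 20 called with a block over 9 libraries, the same 10 without MEF 3, and 3 members plus 1 of the other direction per list. Chosen after their values were seen were Chrnd, Chrng, Chrnb1, Musk, Dok7, Rapsn, Agrn, Dtna, Utrn, Pygm, Eno3, Ckm, Pgam2, Actn3, Ldb3, Neb, Mylpf, Acta1, Actc1, Myh3, Myh7, Myh8, Ryr1, Ryr3, Srl, Atp2a1, Abcc9, Cdh15, Mymx, Itga7, Car3, Rap1gap2, Mfap4, Mfap2, Col1a1, Col5a2, Itga11, Gas6, Nell2, Runx1 and Sln, besides the heart, keratin and fibroblast markers. Some results are not reported here. Promoter sequences are from RefSeq.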

Additional observations from a re-analysis of the deposited data

How the results depend on the processing

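Against 0 higher and 0 lower genes in the unpaired fit, the replicate block over MEF and MyoD only gave 235 and 32, a block over all 9 libraries 13 and 0, and a block on the 6 libraries alone 0 and 0. Chosen after seeing the data, the block over MEF and MyoD gave 68 and 0 without the libraries numbered 1, 48 and 2 without those numbered 2, and 221 and 18 without those numbered 3. DESeq2 gave 160 and 11, no filter on low counts 10 and 1, limma-trend 9 and 1, and leaving both libraries numbered 3 out of the unpaired fit 198 and 1. Leaving out 1 library at a time gave 0 to 158 higher and 0 to 3 lower genes, with all calls in the fit without MEF replicate 3. Other scalings, the stricter filter, the 6 libraries alone without a block and counts scaled from TPM gave 0 and 0. Signs turned for 3 of the genes followed: Myf5 went from -1.66 to 2.70 and Pax7 from -2.22 to 3.21 without MEF replicate 3, both to 0 without either library numbered 3, and Itga7 from 1.31 to -0.38 without MyoD replicate 3. With 1 library left out at a time these 3 ranged from -4.35 to 2.70, from -5.41 to 3.21 and from -0.38 to 3.81. At this depth a gene under 0.113 to 0.144 CPM in a library cannot be told from 0.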

Other observations

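In the list of interferon-response genes every tested member had a positive unpaired difference: 25 of 25, with a median log2 difference of 0.72. Of these, 0 were called in the paired or unpaired fit, 1 was higher at an unadjusted p under 0.05 in the unpaired one, and 3 of 25 were higher at each replicate number. The summed level was 433, 599 and 861 CPM in MEF 1, 2 and 3 and 453, 1716 and 948 CPM in MyoD 1, 2 and 3. Ifit3, which restrains viral RNA translation with its partners, was at 17.6, 16.3 and 17.5 CPM in MEF and 16.6, 107 and 28.1 CPM in MyoD libraries. Ifit1, of the same family, was at 16.7, 29.9 and 44.3 against 15.8, 143 and 66.9 CPM. MyoD 2 held the highest level of both, and MyoD 1 lay within or just below the range of the MEF libraries.

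Of 22 tested cholesterol synthesis genes, 20 had a negative unpaired difference and 15 were lower at each number, against 19.4% of all tested genes, with 0 called and a median of -0.24. Without MEF 3 the median was -0.11 and 15 were negative. The stress-response list had 0 calls among 18 genes and a median of 0.17, and chemokines and cytokines 0 among 16 and a median of -0.09.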
